A study of Mus musculus with 15 samples.

Results

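The livers of 5 mice fed metformin (Met) were compared with those of 5 mice on standard diet (SD), with 1 miRNA array per mouse. All were male B6C57/J mice. From 1 year of age the SD mice had free access to AIN-93G diet, and the Met mice had free access to the same diet with 0.1% w/w metformin, both for the rest of their lives. No gene was modified in either group, and the age at which livers were taken is not given in the sources used here. The 10 arrays come from a series of 15, and the 5 arrays of calorie-restricted mice were not part of the comparison. On these 1-color Agilent arrays, Cy3-labeled RNA binds to probes for 696 mouse miRNAs. A miRNA was kept when the scanner software flagged it as detected on all 5 arrays of either group, which held for 174 of the 696. Of these, 158 were detected on all 10 arrays, 14 passed only through the Met arrays and 2 only through the SD arrays, miR-17-5p and miR-200b-3p. The comparison addresses whether chronic metformin, which the study examined for effects on the miRNA-processing enzyme DICER1, is accompanied by differences in mature miRNAs. miR-99b-5p, miR-181a-5p and miR-320-3p, named again with their values, were among the 14 that passed only through Met, each detected on 4 of the 5 SD arrays.

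A miRNA is cut from a hairpin precursor by DICER1 and loaded into an Argonaute protein, where its seed, bases 2 to 8, pairs with sites in target mRNAs and lowers their translation or stability. miRNAs that share a seed form a family with overlapping targets, and miRNAs made from neighboring hairpins of a single transcript form a genomic cluster. In liver, miR-122 marks hepatocytes, and the let-7, miR-26 and miR-130 families are known for effects on glucose and lipid metabolism.

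Mature sequences from RefSeq (GRCm38.p6) were matched by name for 132 of the 174 miRNAs. The sequences on which the comparison turned are given with the seed in capitals. Of the 8 miRNAs with the lowest z-scores in Met relative to their spread, 5 had a matched sequence, and these 5 were rich in G and C.
miR-2861: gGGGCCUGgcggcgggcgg
miR-2137: gCCGGCGGgagccccagggag
miR-705: gGUGGGAGguggggugggca
miR-680: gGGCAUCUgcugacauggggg
miR-671-5p: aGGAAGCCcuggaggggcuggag
The miRNAs at the other end of the comparison had varied seeds.
miR-130a-3p: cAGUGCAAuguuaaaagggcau
miR-139-5p: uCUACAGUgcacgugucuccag
miR-92a-3p: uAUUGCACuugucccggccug
miR-26a-5p: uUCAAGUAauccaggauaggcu
miR-181a-5p: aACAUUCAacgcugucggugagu
Of the higher miRNAs, miR-99b-5p, let-7e-5p and miR-125a-5p lay in a single cluster at chr17:17830194-17830876 on the plus strand (GRCm38.p6), and each shares its seed with a miRNA from another locus, shown beside it.
miR-99b-5p: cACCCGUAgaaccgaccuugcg
miR-100-5p: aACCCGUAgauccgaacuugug
let-7e-5p: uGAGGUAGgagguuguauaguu
let-7a-5p: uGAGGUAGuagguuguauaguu
miR-125a-5p: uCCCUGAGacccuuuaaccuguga
miR-125b-5p: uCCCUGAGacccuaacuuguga

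Values are z-scores: from the natural log of a spot's median signal the mean over every spot of its array was subtracted, and the result was expressed in standard deviations of those spots. Outlier spots were left out, and spots were averaged to probes and probes to miRNAs. Background was not subtracted, so a difference in z-score understates the change of a dim miRNA, and levels of different miRNAs are not compared because each has its own probes. The software detected 170 to 205 miRNAs on the SD arrays and 182 to 191 on the Met arrays, and the median signal of negative control spots was 106 to 115 in SD and 114 to 118 in Met. No miRNA spot was saturated. The arrays lay on 2 slides with 2 rows each. SD1 to SD4 were in the upper row of slide 1, SD5 and Met1 to Met3 in its lower row, and Met4 and Met5 in the upper row of slide 2. Group was therefore partly confounded with slide and row. SD5 stood closer to the Met arrays than to the other SD arrays: the median absolute distance of its z-scores was 0.0436 from the Met mean and 0.0687 from the mean of SD1 to SD4. This was not particular to SD5. SD3, in the upper row, was at 0.0574 from the Met mean and 0.0616 from that of the other SD arrays. Met2 was at 0.0426 from the SD mean and 0.0470 from that of the other Met arrays. SD5 and SD4 also had 675 and 717 outlier spots, against 321 to 434 on SD1 to SD3 and 419 to 654 on the Met arrays.

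Metformin was accompanied by few differences in single miRNAs. Against the study's limits, which are an unadjusted p of 0.05 or less, an adjusted p of 0.3 or less and an absolute Z ratio of 1.5 or more, 4 of 174 miRNAs (2.3%) differed by limma. The Z ratio puts a difference in mean z-score on the scale of all differences: it is the difference over their standard deviation across the 696 miRNAs, here 0.0609. miR-130a-3p rose, and miR-2861, miR-2132_v15.0 and miR-2137 fell. At an unadjusted p of 0.05 or less alone there were 17 miRNAs, 9 higher (5.17%) and 8 lower (4.6%) in Met. Of the 9, miR-99b-5p and miR-181a-5p had passed the detection filter only through Met, where they were higher, and among the 158 miRNAs detected on all 10 arrays there were 7 higher and 7 lower. At an adjusted p of 0.05 or less there were 2, miR-680 and miR-705, both lower. The balance over all 174 was nearly even, with 99 higher and 75 lower in Met and a median difference of 0.00879 z-score units. Of the 99, 9 had passed the detection filter only through Met, and of the 158 detected on all 10 arrays, 89 were higher. Every Met array was above every SD array for 1 miRNA (0.575%), and every Met array was below every SD array for 3 (1.72%).

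The count of 4 depended on single arrays and on the slide. Leaving out SD5 gave 17 miRNAs, 13 of them higher in Met, and leaving out Met5 or SD2 gave 0. The 17 held all 4. The others higher in Met were let-7a-5p, let-7b-5p, let-7c-5p, let-7d-5p, let-7e-5p, miR-125a-5p, miR-125b-5p, miR-26a-5p, miR-23a-3p, miR-92a-3p, miR-22-3p and miR-122-5p, with Z ratios without SD5 of 1.82 for miR-92a-3p to 4.12 for miR-122-5p. The other lower miRNA was miR-1897-5p, with a Z ratio of -1.60. The limma adjusted p of these 13 added miRNAs was 0.0700 for let-7e-5p to 0.280 for miR-22-3p. Among the arrays of slide 1 (5 SD and 3 Met), 0 met the criteria and 6 had a limma p of 0.05 or less. With the calorie-restricted arrays in the fit, 2 met them, miR-2861 and miR-2132_v15.0, and with the methods' pairwise test of each miRNA 13 did.

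**Figure D1:**
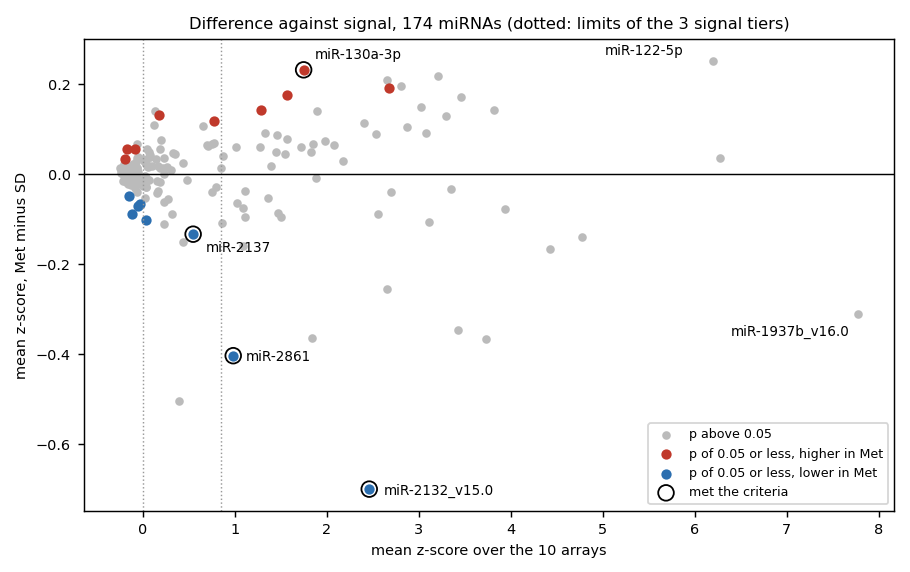
Difference in mean z-score (Met minus SD, vertical axis) against the mean z-score over the 10 arrays (horizontal axis) for 174 miRNAs, each point 1 miRNA. The 4 rings mark the miRNAs that met the criteria, miR-130a-3p above 0 and the other 3 below it, and dotted lines part the 3 signal tiers.

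miR-130a-3p, which is known to target the adipogenic regulator Pparg, was the only miRNA that rose by the criteria. Its z-scores were 1.53, 1.61, 1.68, 1.56 and 1.79 in SD1 to SD5 and 1.77, 1.83, 1.84, 1.95 and 1.94 in Met1 to Met5. The groups overlapped only through SD5, which was just above Met1. The mean was 1.63 ± 0.104 in SD and 1.86 ± 0.0758 in Met (mean ± standard deviation, n = 5), a difference of 0.232 with a standard error of 0.0643 (limma adjusted p = 0.145, Z ratio 3.80). On the background-subtracted total gene signal of the software the difference was 0.32 on the log2 scale. On slide 1 alone it was 0.180 z-score units (limma adjusted p = 0.977). Met1 to Met3 exceeded SD5, which shared their slide row, by 0.0264 on average.

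Of the other miRNAs higher at an unadjusted p of 0.05 or less, miR-139-5p, known as a suppressor of liver tumor growth, was the one whose groups did not overlap. It was dim, with z-scores of -0.119, -0.111, -0.119, -0.0994 and -0.0940 in SD and -0.0668, -0.0332, -0.0907, -0.0350 and -0.0363 in Met. The difference was 0.0560 (limma adjusted p = 0.145), and its Z ratio of 0.920 kept it from the criteria. On the total gene signal it was 0.45 on the log2 scale, with a Z ratio of 2.52, and met them.
miR-26a-5p, which is known to restrain hepatic glucose and lipid synthesis, had z-scores of 2.37, 2.59, 2.62, 2.59 and 2.72 in SD and 2.68, 2.74, 2.74, 2.82 and 2.86 in Met. SD1 was lowest and SD5 lay within the range of Met, and the difference of 0.192 ± 0.0752 (standard error) had a limma adjusted p of 0.336.
miR-92a-3p, a member of the proliferative miR-17-92 cluster, had z-scores of 0.704, 0.674, 0.754, 0.639 and 0.816 in SD and 0.867, 0.832, 0.834, 0.806 and 0.841 in Met. Only Met4 was below SD5, and the difference was 0.119 (limma adjusted p = 0.324), with 0.127 on slide 1 alone.
miR-125b-5p, the mammalian relative of the worm developmental timer lin-4, was higher by 0.176 (limma adjusted p = 0.324), with 1.36 to 1.64 in SD (median 1.44) and 1.57 to 1.74 in Met (median 1.64). miR-181a-5p, which is abundant in lymphocytes, was higher by 0.0327 (limma adjusted p = 0.367), and its difference on slide 1 alone was 0.0146. The other 3 were miR-99b-5p, let-7e-5p and miR-23a-3p, described with their clusters. In all 9, every Met array was above the SD mean, which selection by p makes likely. SD5 was the highest SD array in 8 of the 9, beside 59 of all 174. Met1 to Met3 were on average above SD5 in 5 of the 9, beside 52 of all 174.

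**Figure D2:**
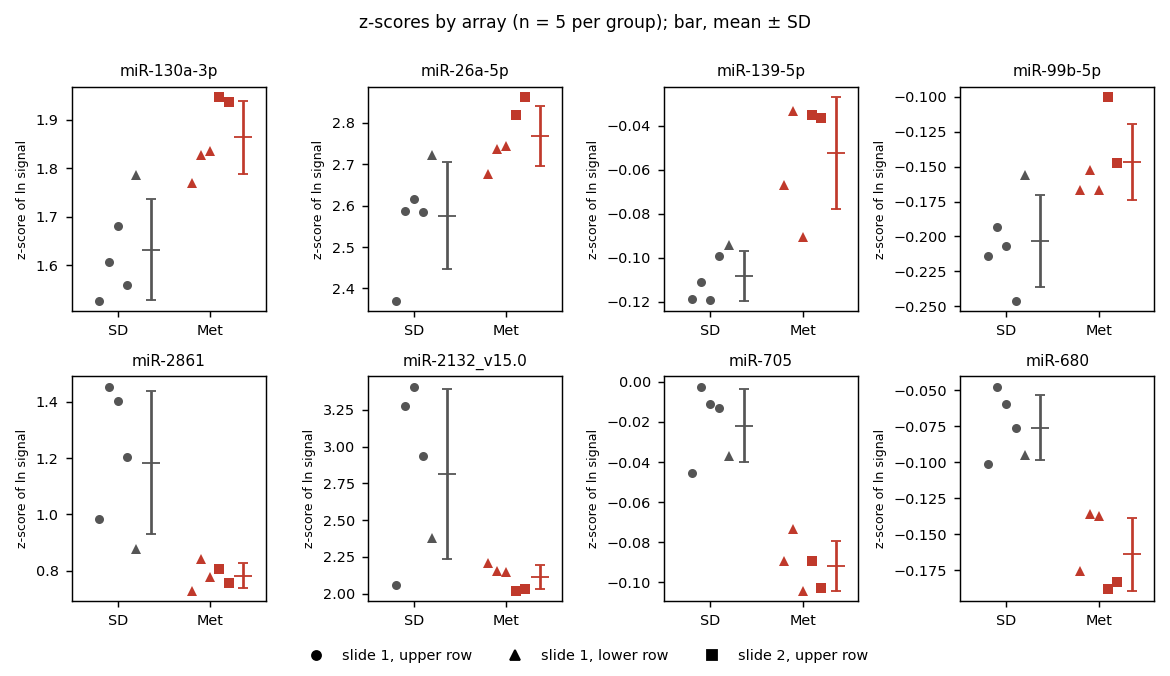
z-scores of 8 miRNAs by array, 5 SD and 5 Met, with the mean and standard deviation beside the points and symbols for the slide and row. Each panel has its own vertical axis; miR-139-5p, miR-2861, miR-705 and miR-680 show no overlap between groups, and SD5 (grey triangle) lies nearest to or among the Met arrays for miR-130a-3p, miR-26a-5p, miR-99b-5p and miR-2861.

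Of the 8 miRNAs lower in Met at an unadjusted p of 0.05 or less, miR-680 and miR-705 had the smallest p-values, and miR-2861 and miR-2132_v15.0 the largest differences. The z-scores of miR-680 were -0.101, -0.0474, -0.0597, -0.0759 and -0.0950 in SD and -0.175, -0.136, -0.137, -0.188 and -0.183 in Met. Every Met array was below every SD array, with a difference of -0.0879 ± 0.0161 (standard error, limma adjusted p = 0.0344). The Z ratio was -1.44, just short of the limit. On the total gene signal it was lower by 0.56 on the log2 scale, with a Z ratio of -3.11, and met the criteria.
For miR-705 the z-scores were -0.0455, -0.00235, -0.0112, -0.0131 and -0.0368 in SD and -0.0896, -0.0735, -0.104, -0.0891 and -0.103 in Met. Again the groups did not overlap, and the difference was -0.0700 ± 0.0144 (standard error, limma adjusted p = 0.0434, Z ratio -1.15). Both were dim, and on slide 1 alone the adjusted limma p of each was 0.556, so that neither call held there.
miR-2861, known for promoting osteoblast differentiation through the histone deacetylase Hdac5, had z-scores of 0.983, 1.45, 1.40, 1.21 and 0.877 in SD and 0.729, 0.841, 0.776, 0.807 and 0.755 in Met. All Met arrays were below all SD arrays, and SD5 was the SD array nearest to Met. The mean fell by 0.403 with a standard error of 0.104 (limma adjusted p = 0.145, Z ratio -6.62), and the difference on slide 1 alone was -0.403 (limma adjusted p = 0.702).
miR-2132_v15.0, an entry that the array carries under an older miRNA database release, as its suffix shows, had z-scores of 2.06, 3.27, 3.41, 2.93 and 2.38 in SD and 2.21, 2.15, 2.15, 2.02 and 2.03 in Met. The Met arrays were tightly grouped, the SD arrays were spread, and SD1 lay within the Met range. It fell by 0.699 with a standard error of 0.228 (limma adjusted p = 0.267).
miR-2137 fell by 0.133 (standard error 0.0449, limma adjusted p = 0.278), from 0.543 to 0.690 in SD to 0.435 to 0.554 in Met, and Met1 overlapped SD1. Its call was lost under 18 of the alternatives tried, and that of miR-2132_v15.0 under 14.
The other 3 at an unadjusted p of 0.05 or less were miR-671-5p, which directs cleavage of the circular RNA Cdr1as, miR-320-3p, which is made without Drosha, and miR-1897-5p, with differences of -0.0664, -0.0476 and -0.101 (limma adjusted p = 0.308, 0.324 and 0.443). In all 8 lower miRNAs, every Met array was below the SD mean, which selection by p makes likely here too. Met1 to Met3 were below SD5 on average in 6 of the 8, beside 122 of all 174, the exceptions among the 8 being miR-320-3p and miR-1897-5p. The z-score of miR-1897-5p in SD1 was 0.264, against -0.0179 to 0.0633 on the other SD arrays, and the Z ratio of miR-320-3p turned to 0.235 when arrays were scaled by the 75th percentile over detected probes.

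The lower miRNAs for which a sequence was matched were rich in G and C. Among the 132 with a sequence, the median content of G and C was 47.8%, and 5 of the 8 lower miRNAs had a sequence, with 66.7% to 94.7%. The 9 higher miRNAs had 40.9% to 63.6%. Of the 21 miRNAs with 60% or more G and C, 6 were higher and 15 lower in Met, with a median difference of -0.0308. At a limma p of 0.05 or less, 5 of them were lower and 1, miR-99b-5p, was higher, beside 4.6% and 5.17% of all 174. These 5 are the lower miRNAs through which the composition was noticed, so their count is not independent of that choice. Of the 23 with under 40%, 12 were higher, with a median of 0.00227. Of the 51 with 40% to under 50%, 40 were higher, with a median of 0.0327, and of the 37 with 50% to under 60%, 24 were higher. Without the 2 miRNAs of the GC-rich set that met the criteria, 13 of the remaining 19 were lower. These 19 still held miR-705, miR-680 and miR-671-5p, through which the composition was noticed, so the count is not independent of that choice. On slide 1 alone the median of the GC-rich set was -0.0239, and on the total gene signal 5 of the 21 were higher with a median of -0.13 on the log2 scale. Met1 to Met3 were below SD5 for 19 of the 21, but also for 122 of all 174. Across the 132 miRNAs, which share the same 10 arrays and are not independent, the difference correlated with the content of G and C with a Pearson r of -0.35 and a Spearman rho of -0.25. Within the signal tiers the Spearman rho was -0.18 (bright), -0.13 (middle) and -0.32 (dim). The part of base composition in hybridization or labeling in these differences was not tested.

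**Figure D3:**
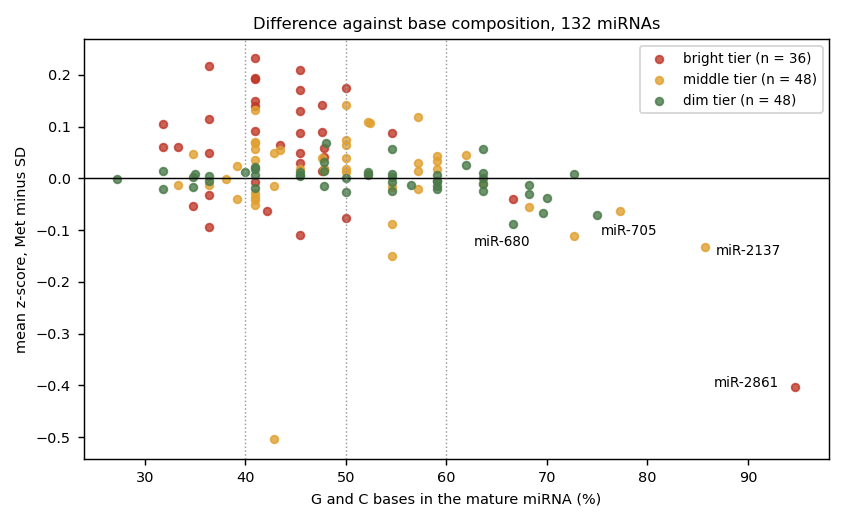
Difference in mean z-score (Met minus SD, vertical axis) against the percent of G and C bases in the mature miRNA (horizontal axis) for 132 miRNAs, colored by signal tier. Dotted lines stand at 40%, 50% and 60%, and of the 21 miRNAs at 60% or more, 15 lie below 0, among them miR-2861, miR-2137, miR-705 and miR-680.

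The let-7 family, regulators of developmental timing and of insulin signaling, was the largest seed family tested, with 9 members including miR-98-5p. All 9 had a higher mean in Met, with differences of 0.0141 for miR-98-5p to 0.218 for let-7a-5p and a median of 0.132, beside 0.00879 over all 174. Only let-7e-5p had a limma p of 0.05 or less. The z-scores of let-7a-5p were 2.93, 2.94, 3.29, 2.93 and 3.40 in SD and 3.38, 3.27, 3.33, 3.30 and 3.30 in Met. SD1, SD2 and SD4 were low, while SD3 and SD5 lay in the range of the Met arrays or above it. let-7b-5p, let-7c-5p and let-7d-5p were higher by 0.209, 0.195 and 0.140 (limma adjusted p = 0.537, 0.599 and 0.678), and let-7f-5p, let-7g-5p and let-7i-5p by 0.105, 0.114 and 0.0700 (adjusted p = 0.755, 0.716 and 0.716). All 9 were more widely spread in SD than in Met, as were 115 of all 174. The median standard deviation was 0.216 in SD and 0.0592 in Met. SD5 was the highest SD array for 8 of the 9, beside 59 of all 174. For all 9, Met1 to Met3 were on average below SD5, as they were for 122 of all 174. Over the 9, the median difference of Met1 to Met3 was -0.0848 from SD5 and 0.169 from the mean of SD1 to SD4. Without SD5, let-7a-5p, let-7b-5p, let-7c-5p, let-7d-5p and let-7e-5p met the criteria. The SD array of the same slide row thus gave the opposite direction for all 9, and lying below SD5 was not particular to this family. With the slide row as a block, the Z ratio of miR-98-5p turned to -0.0737 and that of the other 8 stayed above 0.

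**Figure D4:**
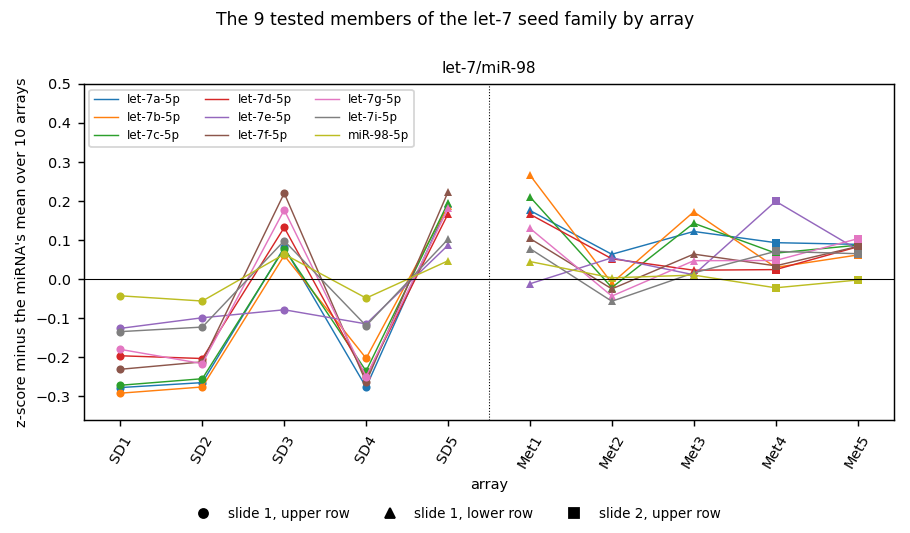
z-score of each of the 9 let-7 family members minus its own mean over the 10 arrays (vertical axis), by array (horizontal axis), with symbols for slide and row. SD1, SD2 and SD4 lie below 0 for all 9 members, and SD5 lies above 0 for all 9.

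Genomic clusters were formed only from the 132 miRNAs matched in RefSeq. Tested miRNAs without a match, such as miR-23b-3p (0.0786), were in none. Of the 8 clusters with 3 or more matched miRNAs, 3 had a median difference above 0.05. They were that of let-7d, let-7f and let-7a at 0.140, with the family described before, that of miR-23a at 0.107 and that of miR-99b at 0.0565. The medians of the other 5 were 0.00620 to 0.0159. The cluster of miR-99b, let-7e and miR-125a, joined in a single transcript known from blood stem cells and endothelium, had 4 of 5 members higher in Met. miR-99b-5p, which targets components of the mTOR pathway, had z-scores of -0.214, -0.193, -0.207, -0.246 and -0.156 in SD and -0.167, -0.153, -0.167, -0.100 and -0.147 in Met. SD5 was within the Met range, and the difference was 0.0565 (limma adjusted p = 0.267, Z ratio 0.928). let-7e-5p had z-scores of 0.0552, 0.0823, 0.103, 0.0667 and 0.268 in SD and 0.169, 0.236, 0.192, 0.381 and 0.257 in Met, a difference of 0.132 (limma adjusted p = 0.324). SD5 stood apart from the other SD arrays and exceeded 4 of the 5 Met arrays, and Met4 was highest. miR-125a-5p followed the same order, with SD5 at 0.225 against 0.0382 or less on the other SD arrays and Met4 at 0.435, and a difference of 0.141 (limma adjusted p = 0.537). The arms from the other side of the hairpins did not go with them. miR-99b-3p was at -0.0244 (adjusted p = 0.793), and miR-125a-3p was 0.0328 higher through Met4 alone, at 0.621 against -0.0276 to 0.0992 on the other Met arrays, with a Z ratio of -1.47 without it. On slide 1 alone, 3 of the 5 members were higher, with a median of 0.0413.
The cluster of miR-23a, miR-27a and miR-24 at chr8:84208563-84208896, known for roles in lipid metabolism and vessel growth, had all 3 members higher in Met. miR-23a-3p was higher by 0.142 (limma adjusted p = 0.443), with z-scores of 1.14, 1.20, 1.28, 1.0997 and 1.34 in SD and 1.29, 1.29, 1.31, 1.46 and 1.42 in Met. The 2 arrays of slide 2 were the highest, and the other 3 Met arrays were below SD5. miR-27a-3p and miR-24-3p were higher by 0.107 and 0.0879 (adjusted p = 0.537 and 0.678), and on slide 1 alone the median of the 3 members was 0.0446 instead of 0.107. Slide and group cannot be told apart for Met4 and Met5, since slide 2 held no SD array.

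**Figure D5:**
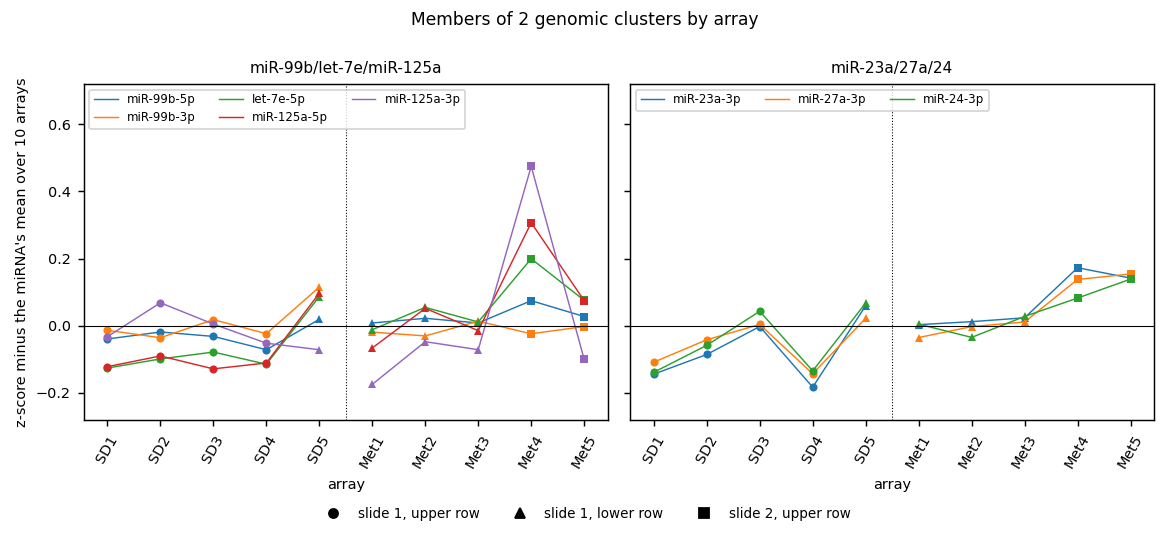
z-score minus the miRNA's own mean over the 10 arrays (vertical axis), by array (horizontal axis), for the tested members of the miR-99b/let-7e/miR-125a cluster (left, 5 members) and the miR-23a/27a/24 cluster (right, 3 members). Met4 gives the highest value for miR-99b-5p, let-7e-5p, miR-125a-5p and miR-125a-3p, and Met4 and Met5 are the 2 highest arrays for all 3 members on the right.

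Median differences in z-score of the other families were smaller than that of the let-7 family, and no member of any of these families, let-7 included, met the criteria. On the total gene signal the median of the miR-99 family was 0.250 on the log2 scale, above the 0.198 of the let-7 family. The 3 members of the miR-99 family were all higher, with a median of 0.0565, led by miR-99a-5p at 0.0655 (limma adjusted p = 0.716) and with miR-100-5p at 0.0387 (adjusted p = 0.678). The 4 members of the miR-15/16 family with a matched sequence, which restrain the cell cycle, were all higher. They ran from miR-195a-5p at 0.0487 to miR-15a-5p at 0.0908 (adjusted p = 0.678 and 0.717), and 3 of the 4 were higher on slide 1. miR-497-5p, for which no sequence was matched, was placed in no family and was higher by 0.0359 (limma adjusted p = 0.678). In the miR-29 family, repressors of collagen genes, miR-29a-3p was higher by 0.150 and miR-29b-3p at -0.0524 (adjusted p = 0.678 and 0.804). Of the miR-17 seed family, 3 of 5 were higher, with a median of 0.00892 and no member outside -0.0152 to 0.0242. Medians over the 5 members of the miR-17-92 cluster and the 3 of the miR-25/93/106b cluster were 0.00810 and 0.00892. miR-92a-3p and miR-19b-3p also have loci on chromosome X, and the array cannot tell the copies apart. For 12 precursors both arms of the hairpin were tested and matched in RefSeq. The arms had the same sign of difference in 5 of these, 4 with both higher and 1 with both lower. Tested pairs with an unmatched arm, among them those of miR-126, miR-140, miR-378a, miR-1839 and miR-1897, were not counted.

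When the 174 miRNAs were parted into 3 equal tiers by mean z-score, the median difference was 0.0433 in the bright tier, 0.0166 in the middle tier and 0.00201 in the dim tier, with 34, 34 and 31 of 58 higher in Met. On slide 1 alone the medians were 0.00810, -0.00485 and -0.00268. On the background-subtracted total gene signal they were 0.0764, 0.107 and 0.106 on the log2 scale, with 33, 37 and 36 higher in Met. The fall from bright to dim was thus not seen on that signal. Calls by the criteria numbered 3 in the bright tier, 1 in the middle tier and 0 in the dim tier, while at a limma p of 0.05 or less there were 6, 4 and 7. The largest difference in the dim tier, -0.0879 for miR-680, had a Z ratio of -1.44, short of the limit. No miRNA of that tier could therefore meet the criteria. When arrays were instead scaled by the 75th percentile over detected probes, 141 of the 174 were higher in Met with a median of 0.07 on the log2 scale, and 12 of the 14 miRNAs with a limma p of 0.05 or less were higher. With the percentile over all probes 95 were higher, with centering alone 96 and with quantile normalization 114. On the total gene signal 106 were higher, with normexp background correction 108 and on slide 1 alone 84. Among these settings the balance of directions moved most with the scaling by detected probes, and on slide 1 alone more miRNAs were lower than higher.
The 10 miRNAs with the brightest total gene signal made up 76.1% ± 2.64 of the summed signal in SD and 73.3% ± 3.58 in Met (standard deviation, n = 5). The difference of -2.82 percentage points was within the spread of the arrays (two-sided exact permutation test, p = 0.198, adjusted p = 0.298 over 3 such tests). The brightest was miR-1937b_v16.0, an entry since reclassified as a tRNA fragment, with 39.6% ± 7.81 in SD and 33.0% ± 9.17 in Met. Apart from miR-122-5p and miR-494-3p, all of the 10 carry a suffix naming an older miRNA database release, as miR-2132_v15.0 does. The share of the 10 is therefore mostly that of such entries. miR-122-5p, the hepatocyte miRNA that controls cholesterol and lipid genes, gave 9.998% ± 2.34 and 12.6% ± 1.35. Its z-scores were 5.77, 6.01, 6.08, 6.14 and 6.36 in SD and 6.27, 6.36, 6.40, 6.31 and 6.28 in Met, with SD1 lowest and SD5 within the Met range. The difference of 0.252 did not pass (limma adjusted p = 0.537).

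The arrays matched their label as liver. Of 6 hepatocyte markers, 5 were on the array and all 5 were tested, with 3 higher in Met, 0 at a limma p of 0.05 or less and a median difference of 0.0884. Besides miR-122-5p, miR-192-5p and miR-194-5p were higher by 0.0905 and 0.0884 (adjusted p = 0.755 and 0.716), and miR-802-5p, a regulator of hepatic insulin sensitivity, was at -0.0196 (adjusted p = 0.833). The summed total gene signal of the list was 19393 to 30479 in SD and 25258 to 30644 in Met. Muscle, neuron and pancreas markers, 8 on the array, were detected on none of the 10 arrays. Markers of blood and other liver cells were detected in both groups. Of 6 leukocyte markers, 4 were tested and 3 were higher (0 of 4 on slide 1, with a median of -0.0443), with a summed signal of 131 to 246 in SD and 136 to 347 in Met. Among the 3 higher, miR-155-5p had passed the detection filter only through Met. None of the 4 had a limma p of 0.05 or less, and the myeloid miR-223-3p and miR-142-3p differed by -0.0363 and 0.0270 (adjusted p = 0.833 and 0.804), while miR-146a-5p differed by 0.0565 (adjusted p = 0.824) and turned to a Z ratio of -1.43 on slide 1. The endothelial miR-126-3p and miR-126-5p differed by 0.0743 and -0.0230 (adjusted p = 0.755 each), with a summed signal of 620 to 886 in SD and 665 to 877 in Met. Of the 5 stellate or mesenchymal markers, all were higher, led by miR-145a-5p at 0.0374 (adjusted p = 0.678), with 0 at a limma p of 0.05 or less, 2 of 5 higher on slide 1 and a summed signal of 171 to 229 in SD and 178 to 251 in Met. Among these 5, miR-214-3p had passed the detection filter only through Met. Of 3 erythroid markers, only miR-451a was tested, and it differed by -0.0943 (adjusted p = 0.833), with a summed signal of the list of 265 to 726 in SD and 291 to 621 in Met. In whole liver, a change in the number of cells of a type and in RNA per cell cannot be told apart.

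Few regulators of hepatic metabolism passed a test. Of 20 miRNAs listed, 18 were tested, 14 of them higher and 4 lower in Met with a median of 0.0281, and miR-26a-5p, miR-130a-3p and miR-181a-5p had a limma p of 0.05 or less, beside 5.17% of all tested, of which miR-181a-5p had passed the detection filter only through Met. miR-22-3p was higher by 0.130 and miR-378a-3p, encoded within the gene of the coactivator PGC-1beta, was at -0.0942 (adjusted p = 0.678 each), with no Met array above the SD mean for the latter. Of the miRNAs known to target Dicer1 itself, all 11 listed were tested and all 11 were higher, with a median of 0.132 and with 2 at a limma p of 0.05 or less, miR-130a-3p and let-7e-5p, beside 5.17% of all tested. This list holds 8 let-7 members, so its direction is largely theirs, and miR-103-3p, a regulator of insulin sensitivity, was higher by 0.0597 (adjusted p = 0.755).
The senescence list comes from the study, which named it on these samples, so its direction is not independent evidence. Of 26 members on the array, 23 were tested, 21 of them higher and 2, miR-30e-5p and miR-106b-5p, at -0.0280 and -0.0141 (adjusted p = 0.820 and 0.833). The median was 0.0700, 3 had a limma p of 0.05 or less (miR-130a-3p, let-7e-5p and miR-125b-5p, beside 5.17% of all tested), and on slide 1 alone 19 were higher with a median of 0.0334. Among the 21 higher, miR-30c-2-3p had passed the detection filter only through Met. miR-34a-5p, a p53 target, and miR-20a-5p were higher by 0.0750 and 0.0242 (adjusted p = 0.717 and 0.833). miR-1897-3p, from the other arm of the miR-1897-5p hairpin, was at -0.0882 (adjusted p = 0.633) with all 5 Met arrays below the SD mean.

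The spread among arrays was also compared, and the difference between the groups did not pass its test. For 115 of the 174 miRNAs the Met group had the smaller standard deviation. Per array, the median absolute deviation of the z-scores from the mean of its own group was 0.0648, 0.0331, 0.0493, 0.0396 and 0.0550 in SD1 to SD5 and 0.0354, 0.0376, 0.0302, 0.0360 and 0.0380 in Met1 to Met5. SD1, SD3 and SD5 stood out, and SD2 lay among the Met arrays. The means were 0.0484 ± 0.0125 and 0.0354 ± 0.00311 (standard deviation, n = 5, two-sided exact permutation test, p = 0.0794, adjusted p = 0.238 over 3 tests, with 0.00794 the smallest p that 5 against 5 allow). The number of detected miRNAs was 186 ± 14.3 in SD and 187 ± 3.27 in Met (standard deviation, n = 5, exact permutation test, p = 0.929, adjusted p = 0.929).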

How the data were processed

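Total RNA from the liver of each mouse was labeled with Cy3 and hybridized to Agilent mouse miRNA arrays with 13920 spots from 1937 probes for 696 miRNAs beside 715 control spots. The files that the authors deposited are output of the scanner software Feature Extraction 11.5.1.1. They give linear intensity per spot and per miRNA (total gene signal), not normalized across arrays, with 0 or 1 flags for detected miRNAs and outlier spots. A deposited table of scores held the authors' z-scores, which differed by at most 0.0005 from those computed here from natural logs. With 5 arrays per group, their number limits the precision.

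Met and SD were compared with limma 3.58.1 in R 4.3.3 on the 10 arrays, with variances that follow the mean and Benjamini-Hochberg adjustment over the 174 miRNAs. The limits were those of the study's methods, whose pairwise z-test was an alternative. For single values per array, a two-sided exact permutation test enumerated every partition of the 10 arrays. Seed families and clusters (loci within 10 kb on a strand) were formed from the tested miRNAs matched in RefSeq and had 3 or more of them. Lists, families and tiers were described without a test. In data simulated for the same comparison, 37 of 40 miRNAs changed by 0.4 in z-score were called, with 2 false calls (medians over runs). That change was larger than the 0.232 of miR-130a-3p, and the simulation held no slide or row effect. It therefore does not give the recovery of smaller changes on these arrays. The miRNAs and lists were chosen with earlier results of these data known, as was the choice to leave the calorie-restricted arrays out of the fit. Named miRNAs are those that met the criteria, the 8 highest and 8 lowest by moderated t, bright miRNAs, members of the lists, the extremes of a family or cluster, and those behind a count of 5 or fewer. The labels' replicate numbers did not pair mice across groups. RefSeq loci are in GRCm38.p6, while the array design names mm9, so loci serve only to place the miRNAs. Alternatives were other scalings, background corrections, filters, probe summaries, fits and blocks, and leaving out each mouse.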

Additional observations from a re-analysis of the deposited data

Results flagged for a closer look

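On 5 occasions, 1 array of a group stood far from the other 4, out of 122 checks of a group of 5 arrays. Chance gives such a gap in about 1 of 20 checks. In SD, let-7e-5p was at 0.268 and miR-125a-5p at 0.225 on SD5, against at most 0.103 and 0.0382 on the other SD arrays, and both miRNAs come from the same cluster. In Met, miR-99b-5p of that cluster was at -0.100 and miR-125a-3p at 0.621 on Met4, against at most -0.147 and 0.0992 on the other Met arrays. miR-1897-5p was at 0.264 on SD1, against at most 0.0633 on the other SD arrays. All values are z-scores.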

How the results depend on the processing

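The number of miRNAs meeting the criteria, 4 as reported, was 1 when arrays were scaled by the 75th percentile over all probes (11 at an unadjusted limma p of 0.05 or less, beside 17), 2 with centering alone, 10 with normexp background correction, 8 each with the total gene signal, the brightest probe or outlier spots kept, 7 without the mean-variance trend and 13 with the methods' pairwise test. With no filter it was 0 (36 at the unadjusted p), at an adjusted p of 0.05 or less 2, neither of them among the 4, and with all 15 arrays in the fit 2. With the slide as a block or slide 1 only it was 0 (8 and 6 at the unadjusted p). With the replicate number as a block it was 2; same-numbered mice did not deviate together (correlations of -0.562 to 0.714), so the samples share only a number. With the slide row as a block, an alternative chosen after seeing the data, it was 3. Leaving out single mice gave 0 (without Met5 or SD2) to 17 (without SD5), and 12 to 27 at the unadjusted p, where Met5 and SD2 gave 13 and 14. Without Met2, Met3 or SD3 it was 2, and without Met4 or SD4 it was 1.

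The difference in deviation from the group mean (-0.0129) kept its sign under all alternatives run. It passed an exact permutation p of 0.05 with that scaling over all probes (-0.0224), centering alone (-0.0127), detection on all 10 arrays (-0.0145) and slide 1 only (-0.0203), and also without Met4, Met5, SD1, SD2 or SD4 (exact permutation p = 0.0159 to 0.0476). Leaving out single mice gave -0.0190 to -0.00716, where unequal group sizes also shrink the deviation of the smaller group. The difference in detected miRNAs was -0.733 on slide 1 and -3.30 to 5.45 without single mice.

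Of 1677 alternative values for 58 named miRNAs, 1549 kept their sign and side of the criteria and 30 changed sign, all for miRNAs that did not meet the criteria. With the 75th percentile over detected probes, Z ratios turned to 0.235 for miR-320-3p, 0.549 for miR-99b-3p, 0.628 for miR-802-5p, 0.260 for miR-30e-5p, 0.655 for miR-106b-5p, 0.558 for miR-126-5p, 0.309 for miR-223-3p and 0.761 for miR-17-5p. With the slide as a block and on slide 1 alone they turned to -1.52 for miR-125a-3p, -0.232 for miR-142-3p, -1.43 for miR-146a-5p and -0.419 for miR-200b-3p, and with the slide row as a block to -0.0737 for miR-98-5p and 0.478 for miR-223-3p. Quantile normalization gave 0.0241 for miR-106b-5p, and the total gene signal -0.0238 for miR-200b-3p. Leaving out single mice gave -1.47 to 1.30 for miR-125a-3p, -0.635 to 0.0165 for miR-99b-3p, -0.686 to 0.0771 for miR-802-5p, -0.448 to 0.0712 for miR-106b-5p, -1.47 to 0.0272 for miR-223-3p, -0.631 to 1.58 for miR-146a-5p and -0.147 to 0.267 for miR-200b-3p. Of 702 alternative medians over 27 lists, families, clusters and signal tiers, 14 moved by more than the spread between arrays and 688 did not. The cause of these changes was not tested.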
